A study of Drosophila melanogaster with 30 samples.

Results

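Buffy, Debcl and p53 are cell death genes of Drosophila melanogaster. They were found by their gene names, in any case of letters, in the authors' deposited tables of comparisons, and each name matched 1 probe set: 1623425_at for Buffy, 1629916_at for Debcl and 1625134_at for p53. These 3 genes stand among 3177 genes named in the deposited tables, and their probe sets are 3 of the 18952 in the deposited table of values. The array measured messenger RNA of the prothoracic leg disc, the larval epithelium that forms the front leg, after the disc was cut and regenerated inside a host fly. There were 30 samples in 10 groups of 3 biological replicates. All came from male larvae aged 100 h of 1 genotype: they were w/Y, had AyGAL4 together with UAS-GFP on one of a pair of chromosomes (the other marked +), and carried the driver puc[E69-I]-GAL4 opposite UAS-flp. In these animals a driver at puc, a target of the stress kinase JNK, turned on flippase, which switched cells and their descendants to lasting GFP. Cut discs were divided into the anterior 1/4 and the posterior 3/4, cultured in the abdomens of adult female flies for 12 or 24 h, and then reduced to their GFP-positive cells. The uncut groups were the corresponding anterior or posterior regions of whole discs, taken after the same culture for 12 or 24 h or without culture at 0 h. The reporter genotype was shared by all 10 groups. Selection by GFP was stated for the cut groups alone, so cut and selection cannot be told apart. Cultured discs were also older than uncultured ones by the length of the culture, so culture and age cannot be told apart either.

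Buffy and Debcl encode the Bcl-2 family proteins of the fly, relatives of the mammalian proteins that control whether mitochondria release death factors. Buffy is described mainly as a protector of cells and Debcl, which resembles mammalian Bok, as a promoter of death. In flies these proteins adjust a pathway whose main switch lies elsewhere: the proteins Rpr, Hid and Grim disable the caspase inhibitor Diap1 and so free the caspases Dronc, Drice and Dcp-1. p53 is the transcription factor that DNA damage activates through the kinase encoded by lok, and in imaginal discs it induces rpr and hid.

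The deposited table of values per sample holds log2 values that are centred on each probe set's mean over all 30 samples. A value of 0 is therefore a gene's own average, and values cannot be compared between genes as levels. Differences between groups were tested with limma over 18769 probe sets, and a change was called at a Benjamini-Hochberg adjusted p under 0.05. Errors given with ± are SDs of 3 samples. The main division among all arrays lay between the 6 uncultured and the 24 cultured samples, which the leading principal component (32.9% of the variance) separated without overlap. Because the table is centred, the markers of the leg disc gave no level to test the tissue label with, and 4 of the 10 markers on that list were named in the tables (B-H2, ap, bab2 and Scr).

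All 3 genes were higher in uncut cultured discs than in the younger uncultured ones. The largest of these rises was that of Buffy in the posterior region at 24 h. Of the 12 values (3 genes in 4 comparisons), 11 were called higher, none was called lower, and in all 12 the 3 cultured samples lay above the 3 uncultured ones. Of all probe sets, 15.8% were called at 12 h in the anterior region (9.51% higher), 20.2% at 12 h posterior (10.5% higher), 32.1% at 24 h anterior (14% higher) and 24.1% at 24 h posterior (14.6% higher). Higher without overlap were 13.5%, 18.7%, 14.3% and 21.2% of them, in the same order. All 3 genes passed the authors' filter on this same contrast (an overall adjusted p under 0.001), so their calls under culture describe why they are listed. Buffy had an overall adjusted p of 4.82e-07 there, rank 844 of 3018. Debcl and p53 owe their names to this filter alone. In tissue samples such as these, more cells of a type and more RNA per cell cannot be told apart.

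Buffy stood at -0.67, -0.56 and -0.42 in the 3 uncultured anterior samples and at -0.55, -0.67 and -0.65 in the uncultured posterior ones. After 12 h of culture it stood at 0.15, 0.15 and -0.30 in the anterior region and at 0.12, 0.05 and 0.56 in the posterior. All 6 samples at 12 h lay above all 6 uncultured samples, a split whose share among all probe sets was not counted. The difference at 12 h anterior was 0.55 (SE 0.20, a ratio of 1.46 with a 95% interval from 1.09 to 1.96), and its adjusted p of 0.0679 missed the threshold. It passed without uncut 12 h anterior replicate 3, the lowest sample of that group (0.70, adjusted p 0.0414). At 12 h posterior Buffy rose by 0.87 (SE 0.20, 1.83-fold, 1.37 to 2.45, adjusted p 0.00233).

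At 24 h the uncut anterior samples held Buffy at -0.19, 0.36 and 0.26, and the uncut posterior samples at 1.05, 0.99 and 1.74. The posterior samples were the highest of the series, and the lowest of them lay above all samples of all other groups. The share of all probe sets with such a split was not counted. Buffy rose by 0.70 in the anterior region (1.62-fold, 1.21 to 2.17, adjusted p 0.0104) and by 1.89 in the posterior (3.70-fold, 2.76 to 4.95, adjusted p 1.29e-07). The posterior rise had rank 125 from the highest among 18769 probe sets. The anterior rise missed the threshold without uncut 24 h anterior replicate 2, at 0.59 (adjusted p 0.0543), with array weights (0.65, adjusted p 0.0977) and with renewed quantile normalisation (0.50, adjusted p 0.0702).

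The posterior rise of Buffy at 24 h exceeded both its anterior rise at 24 h and its posterior rise at 12 h in tests of the differences themselves. The culture effect on Buffy was lower by 1.19 in the anterior than in the posterior region at 24 h (SE 0.29, adjusted p 0.0387, with 1.28% of probe sets called). In the posterior region uncut discs at 24 h lay above those at 12 h by 1.02 (SE 0.20, adjusted p 0.0208, with 0.623% called). The corresponding difference was 0.15 in the anterior region (adjusted p 0.872, with 2.17% called), and the difference between regions at 12 h was -0.32 (adjusted p 0.75, with 0.192% called). The first call ended in 6 of the 12 fits that left out 1 sample: uncultured anterior replicate 3, any uncultured posterior replicate, uncut 24 h anterior replicate 1 (adjusted p 0.105) or uncut 24 h posterior replicate 3 (-0.95, adjusted p 0.0992). It also ended with array weights (adjusted p 0.0784), in a fit of the compared groups alone (0.0741) and with renewed quantile normalisation (-1.04, adjusted p 0.16). The second ended in 3 of 6 such fits, without uncut 12 h posterior replicate 2 (adjusted p 0.099) or uncut 24 h posterior replicate 1 (0.0683) or 3 (0.78, adjusted p 0.198), and in a fit of the compared groups alone (adjusted p 0.134).

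Debcl stood at -0.47, -0.41 and -0.11 in uncultured anterior samples and at -0.60, -0.58 and -0.53 in uncultured posterior ones. At 12 h of culture it was 0.29, 0.21 and 0.16 in uncut anterior and 0.32, 0.21 and 0.06 in uncut posterior samples. At 24 h it was 0.09, 0.31 and 0.33 in the anterior and 0.45, 0.15 and 0.34 in the posterior region. Every one of the 12 uncut cultured samples lay above 0, and every one of the 6 uncultured samples below it. How many of all probe sets split in this way was not counted, and Debcl is listed for its change in this contrast. Debcl rose by 0.55 at 12 h anterior (SE 0.14, 1.46-fold, adjusted p 0.00604) and by 0.77 at 12 h posterior (1.70-fold, adjusted p 0.000134). It rose by 0.57 at 24 h anterior (1.49-fold, adjusted p 0.00194) and by 0.88 at 24 h posterior (1.84-fold, 1.52 to 2.24, adjusted p 1.89e-05). No test of a difference between regions or times passed for Debcl. The difference between regions at 24 h was -0.31 with a 95% interval from -0.70 to 0.09, and that at 12 h was -0.22 (-0.61 to 0.18).

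The p53 probe set read -0.19, -0.52 and -0.23 in uncultured anterior samples and -0.35, -0.35 and -0.53 in uncultured posterior ones. After 12 h it read 0.28, 0.13 and 0.22 in uncut anterior samples and 0.06, 0.02 and 0.06 in uncut posterior samples. After 24 h it read 0.29, 0.41 and 0.16 in the anterior and 0.19, 0.15 and 0.16 in the posterior region. As with Debcl, all 12 uncut cultured samples were above 0 and all 6 uncultured samples below. The limits given there for this split hold for p53 too. The gene rose by 0.53 at 12 h anterior (SE 0.12, 1.44-fold, adjusted p 0.00326), 0.45 at 12 h posterior (1.37-fold, 0.00691), 0.60 at 24 h anterior (1.52-fold, 0.000337) and 0.57 at 24 h posterior (1.49-fold, 0.000686). Between regions and times the rises of p53 differed by 0.03 to 0.12, and none of these differences passed. Their 95% intervals lay between -0.32 and 0.42.

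**Figure D1:**
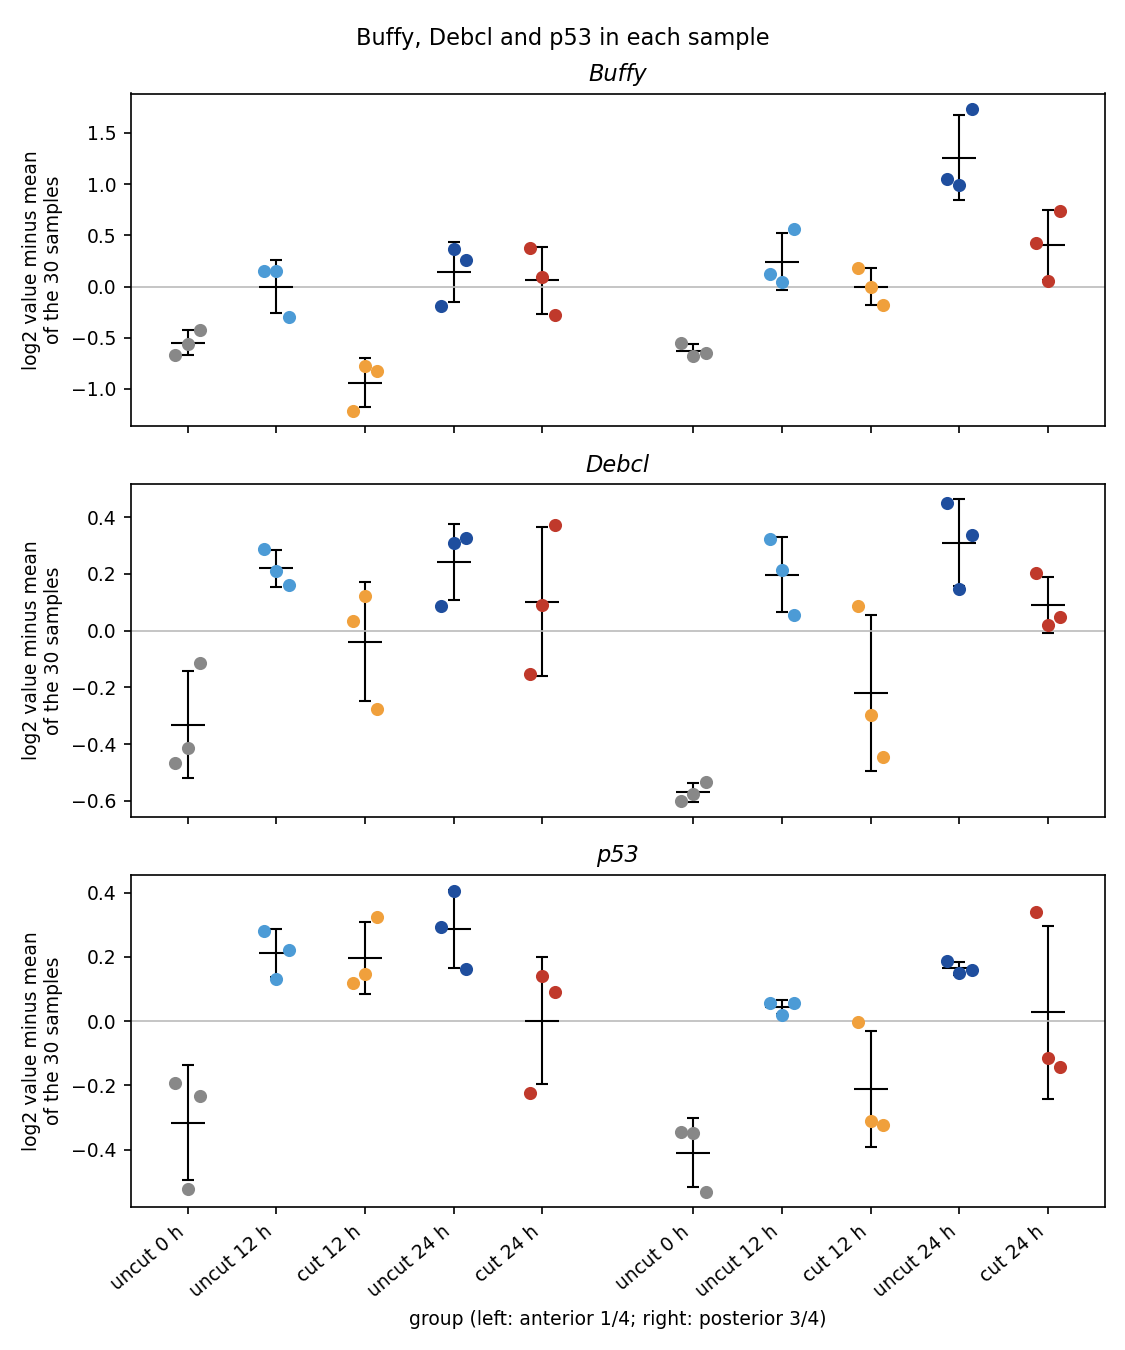
Each point is 1 sample, with its log2 value minus the probe set's mean over the 30 samples on the vertical axis and the 10 groups along the horizontal axis (left, anterior 1/4; right, posterior 3/4). Long bars are group means and whiskers are SDs of 3 samples, with a vertical scale of its own for each gene. The uncultured samples lie below 0 for all 3 genes, and Buffy at 24 h in uncut posterior regions lies highest.

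Cut regions were set against uncut regions cultured for as long. Selection by GFP was stated for the cut samples alone, so these differences hold cut and selection together. Buffy was lower in the cut samples at 12 h in the anterior region and at 24 h in the posterior region, by 1.91-fold and 1.81-fold. Debcl and p53 passed in none of the 4 comparisons. All 12 differences of the 3 genes were below 0, 2 of them were called, and 5 were without overlap between cut and uncut samples. These comparisons and those of culture share the uncut cultured samples, so a high uncut group enters both with opposite sign. Of all probe sets 8.84% were called at 12 h anterior (5.69% lower), 5.05% at 12 h posterior (3.04% lower), 8.62% at 24 h anterior (3.03% lower) and 9.85% at 24 h posterior (5.04% lower). Lower without overlap were 15.5%, 11.8%, 8.84% and 11.7% of them in the same order. Buffy is listed in the authors' deposited table of cut comparisons, whose filter used this contrast. There its overall adjusted p was 0.000726, rank 1349 of 1480, and it was placed in k-means cluster IV. Debcl and p53 are listed in their table of culture comparisons alone, so for these genes the cut contrast itself did not enter the naming. The uncut cultured samples did enter it. A filter that picks genes high in those samples favours cut differences below 0, so these differences are not independent of the naming.

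In cut anterior samples at 12 h Buffy stood at -1.21, -0.77 and -0.82, against 0.15, 0.15 and -0.30 in the uncut ones. All 3 cut samples lay below the lowest uncut sample and below all samples of every other group. For the split from every other group, no share among all probe sets was counted. Buffy fell by 0.94 (SE 0.20), which is 1.91-fold lower with a 95% interval from 1.43 to 2.56 (adjusted p 0.00357). The call held without each of the 6 samples in turn, with adjusted p from 0.00356 to 0.0266. Its level was also -0.39 relative to uncultured anterior regions, without overlap, as 12.5% of all probe sets were lower without overlap there. That difference did not pass (95% interval -0.81 to 0.03, adjusted p 0.239, with 14.8% of probe sets called).

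At 12 h in the posterior region Buffy stood at 0.18, -0.0014 and -0.18 in cut samples and at 0.12, 0.05 and 0.56 in uncut ones, and the groups overlapped. The difference was -0.24 (95% interval -0.66 to 0.18, adjusted p 0.689). At 24 h in the anterior region cut samples stood at 0.37, 0.09 and -0.28 and uncut ones at -0.19, 0.36 and 0.26, again overlapping, with a difference of -0.09 (-0.51 to 0.33, adjusted p 0.898). That difference had the opposite sign without cut 24 h anterior replicate 3 (0.08) and without uncut 24 h anterior replicate 2 (0.02).

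At 24 h in the posterior region the cut samples held Buffy at 0.42, 0.05 and 0.74, and the uncut ones at 1.05, 0.99 and 1.74. The cut samples lay below all uncut samples, and above all uncultured posterior samples. Buffy was 0.86 lower after the cut (SE 0.20, 1.81-fold lower, 1.35 to 2.42, adjusted p 0.00687). The call ended without uncut 24 h posterior replicate 3, the highest sample (-0.62, adjusted p 0.0827), and without cut 24 h posterior replicate 2, the lowest cut sample (-0.68, adjusted p 0.0575). It also ended when the fit used only the groups compared (adjusted p 0.0748).

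The 4 cut differences of Buffy were not shown to differ from each other. Between 24 and 12 h the difference changed by 0.85 in the anterior region (SE 0.29, adjusted p 0.14, with 2.15% of probe sets called) and by -0.61 in the posterior (adjusted p 0.548, with 0.474% called). Between anterior and posterior regions it differed by -0.69 at 12 h (adjusted p 0.718, with 0.208% called) and by 0.77 at 24 h (adjusted p 0.529, with 0.123% called). Each of these 4 intervals left out 0 before adjustment, with unadjusted limma p-values from 0.00675 to 0.0444.

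Debcl after the cut read 0.03, 0.12 and -0.28 at 12 h anterior, where the uncut samples read 0.29, 0.21 and 0.16. At 12 h posterior it read 0.09, -0.30 and -0.45 against 0.32, 0.21 and 0.06. The groups did not overlap in the anterior region, while in the posterior region the highest cut sample lay above the lowest uncut one. The differences were -0.26 (95% interval -0.54 to 0.02, adjusted p 0.275) and -0.42 (-0.70 to -0.14, adjusted p 0.0792). The posterior value passed when arrays were weighted (-0.48, adjusted p 0.00259), when values were quantile normalised again (-0.55, adjusted p 0.0086), and without cut 12 h posterior replicate 1, the highest cut sample (-0.57, adjusted p 0.0226). At 24 h Debcl read -0.15, 0.09 and 0.37 in cut anterior and 0.20, 0.02 and 0.05 in cut posterior samples, and both groups overlapped their uncut counterparts. The differences were -0.14 (-0.42 to 0.14, adjusted p 0.674) and -0.22 (-0.50 to 0.06, adjusted p 0.41).

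For p53 the cut anterior samples at 12 h read 0.12, 0.15 and 0.32, overlapping the uncut ones, and the difference was -0.01 (95% interval -0.26 to 0.23, adjusted p 0.963). The cut posterior samples at 12 h read -0.0032, -0.31 and -0.32 and lay below all 3 uncut ones, with a difference of -0.26 (-0.50 to -0.01, adjusted p 0.294). With array weights this value passed (-0.31, adjusted p 0.0234). At 24 h the cut samples read -0.22, 0.14 and 0.09 in the anterior region, below all uncut ones, and 0.34, -0.11 and -0.14 in the posterior, where the highest cut sample lay above the uncut ones. The differences were -0.29 (-0.53 to -0.04, adjusted p 0.169) and -0.14 (-0.39 to 0.11, adjusted p 0.619). No difference of the cut effect between regions or times passed for Debcl or p53.

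A single estimate over the 4 cut comparisons was added after these values had been seen. The mean cut difference was -0.53 for Buffy (SE 0.10, adjusted p 0.000242), -0.26 for Debcl (SE 0.07, adjusted p 0.00507) and -0.17 for p53 (SE 0.06, adjusted p 0.0328). By this mean all 3 genes were called lower, as were 15% of all probe sets, with 27% called in either direction. The uncut cultured samples entered the naming of the genes, so this mean is not independent of the naming either. The p53 call was lost in 10 of the 24 fits that left out 1 sample. They were those without cut 12 h anterior replicate 1 or 2, cut 12 h posterior replicate 2 or 3, cut 24 h anterior replicate 1, cut 24 h posterior replicate 2 or 3, uncut 12 h anterior replicate 1, uncut 24 h anterior replicate 2 or uncut 24 h posterior replicate 1, with adjusted p from 0.0508 to 0.075. In the overall F test of the 4 comparisons the adjusted p was 0.000723 for Buffy, 0.0495 for Debcl and 0.152 for p53, with 20.5% of probe sets called. The mean culture difference was 1.00 for Buffy, 0.69 for Debcl and 0.54 for p53, with adjusted p from 1.74e-07 to 1.29e-06 and 38.5% of probe sets called.

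**Figure D2:**
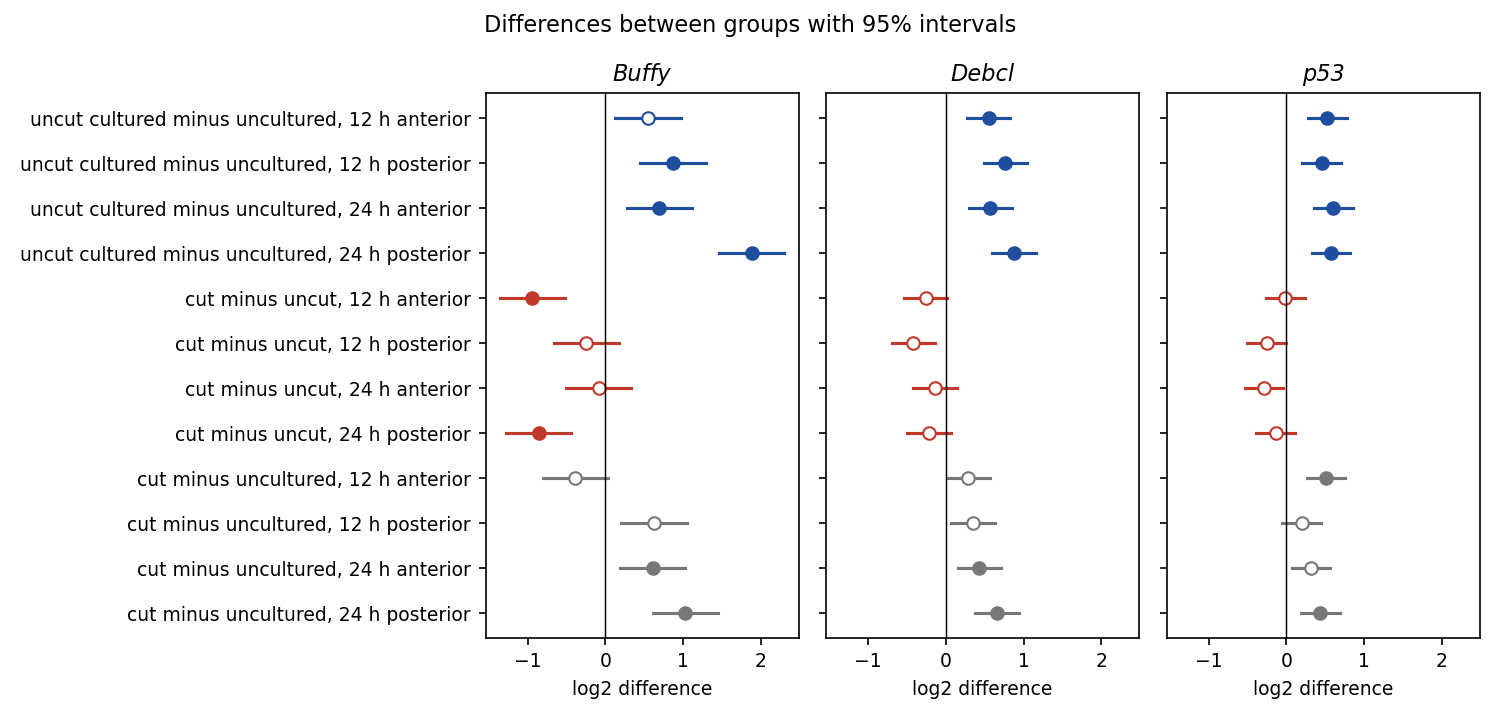
Differences between group means (horizontal axis, log2) for each gene, with 95% intervals from limma and 1 row per comparison. Filled points have an adjusted p under 0.05 and open points do not. All 12 differences under culture lie above 0 and all 12 of cut against uncut cultured regions lie below 0, of which 2 values of Buffy are filled.

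Against uncultured discs the cut regions mostly held higher levels of these genes, with 6 of 12 values called higher and none lower. Of all probe sets 7.28% and 4.2% were called higher in the anterior and posterior regions at 12 h, and 7.56% and 11.2% at 24 h. Buffy was higher by 0.61 at 24 h anterior (adjusted p 0.048, with 13.1% of probe sets called) and by 1.03 at 24 h posterior (2.04-fold, adjusted p 0.000538, with 18.4% called). Its value at 12 h posterior was 0.63 (adjusted p 0.0585, with 8.16% called). Debcl was higher by 0.43 at 24 h anterior (adjusted p 0.0343) and 0.66 at 24 h posterior (adjusted p 0.000828), and its 12 h values of 0.29 and 0.35 did not pass. p53 was higher by 0.51 at 12 h anterior (adjusted p 0.00389) and 0.44 at 24 h posterior (adjusted p 0.0109), while its values of 0.20 at 12 h posterior and 0.32 at 24 h anterior did not pass. These comparisons use the same samples as the earlier ones and add no new arrays. Buffy, Debcl and p53 all passed the authors' culture filter, and the uncultured samples entered it. A filter that picks genes low in those samples favours higher values in cut regions, so these differences are not independent of the naming.

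Regions differed for Buffy in 2 of the 5 conditions and for Debcl and p53 in none. The test treats anterior and posterior samples as independent, and whether same-numbered regions are paired was not examined. Buffy was lower in the anterior region by 0.94 after cut and 12 h (adjusted p 0.00905, with 2.49% of probe sets called) and by 1.11 in uncut discs at 24 h (adjusted p 0.00874, with 0.874% called). The first call ended without replicate 1 of the cut 12 h anterior (-0.80, adjusted p 0.0672) or posterior group (-0.84, adjusted p 0.0561). The second ended without uncut 24 h anterior replicate 1 (-0.95, adjusted p 0.0677) or posterior replicate 3 (-0.87, adjusted p 0.0764), and in a fit of the compared groups alone (adjusted p 0.12). The regional difference of Buffy was -0.34 after cut and 24 h (adjusted p 0.68, with 1.91% called) and -0.24 in uncut discs at 12 h (adjusted p 0.811, with 0.602% called). Before culture the regions differed by 0.08 for Buffy (95% interval -0.34 to 0.50, with 0.714% of probe sets called), 0.24 for Debcl (-0.04 to 0.52) and 0.09 for p53 (-0.15 to 0.34). For p53 the largest regional difference was 0.41, higher in the anterior, after cut and 12 h (95% interval 0.16 to 0.66, adjusted p 0.0765). It passed with array weights (0.44, adjusted p 0.00739), with renewed quantile normalisation (0.44, adjusted p 0.0375) and without cut 12 h posterior replicate 1 (0.51, adjusted p 0.035).

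Ordered by mean, Buffy was highest in uncut 24 h posterior regions (1.26 ± 0.41), followed by cut 24 h posterior regions (0.40 ± 0.34), and lowest in cut 12 h anterior regions (-0.94 ± 0.24). Only 2 steps between neighbours in that order exceeded the 95% margin of 0.42: the step of 0.86 from the highest group to the next, and the step of 0.55 from cut 12 h posterior to uncultured anterior regions. For Debcl the order ran from uncut 24 h posterior (0.31 ± 0.15) to uncultured posterior regions (-0.57 ± 0.03), and for p53 from uncut 24 h anterior (0.29 ± 0.12) to uncultured posterior regions (-0.41 ± 0.11). No step between neighbours exceeded that margin for Debcl (0.28) or p53 (0.25).

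The 3 genes did not follow 1 pattern. Over the 10 group means Debcl and p53 correlated at r = 0.90, Buffy and Debcl at 0.69, and Buffy and p53 at 0.39. Over the 8 cultured group means, where the step from uncultured discs no longer enters, the values were 0.71, 0.58 and -0.03. Deviations of single samples from their group means correlated at 0.40 for Debcl with p53, 0.03 for Buffy with Debcl and 0.00087 for Buffy with p53. The points share the 30 arrays and their normalisation, and these correlations describe the groups without a test.

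The ratio of Buffy to Debcl, the protector to the promoter, was taken within each sample as the difference of their log2 values. It was lowest in cut 12 h anterior regions (-0.90 ± 0.35, n = 3) and highest in uncut 24 h posterior regions (0.95 ± 0.41, n = 3). Cut minus uncut it was -0.68 at 12 h anterior, where the samples did not overlap, and -0.63 at 24 h posterior, where they did. At 12 h posterior and 24 h anterior it had the opposite sign, 0.17 and 0.05, with overlapping samples. Under culture it differed by 1.01 at 24 h posterior, without overlap, and by 0.12 or less elsewhere. A two-sided exact permutation test gave 0.1 for both differences without overlap, the smallest p that 3 against 3 samples allow, and 0.2 for cut 24 h posterior regions.

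The genes whose group means were most like those of each member were sought among 3250 named probe sets whose group means ranged over at least 0.5. For Buffy they were Lrch, which encodes a protein with leucine-rich repeats (r = 0.96), a gene that the deposited table lists as 4-Sep (0.96), stv, a co-chaperone gene (0.95), CG17803 (0.95) and futsch, which encodes a microtubule-binding protein of neurons (0.94). For Debcl they were the deubiquitinase gene Ubpy, the autophagy gene Atg9, Rcd5, Pi3K59F, which encodes the lipid kinase Vps34, and CG7686, all at r = 0.99. For p53 they were the cardiolipin synthase gene CLS, spartin and CG8866 (all 0.98), and the receptor-like gene mthl8 and melt (both 0.97). A correlation above 0.9 was rare for Buffy, with 19 of 3249 other probe sets, and common for Debcl with 576 and p53 with 249. The group means that chose these genes include the steps under culture and cut, so their own changes in those comparisons are set by the choice.

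The remaining genes of the death pathway are described by lists. Only genes that passed the authors' filter in at least one table carry a name. Each count or median below is therefore over genes already chosen for a change and is no support for one. The share called among all probe sets is the one given for each comparison above. None of the 4 RHG death inducers (rpr, hid, grim and skl) is named in the tables used here, nor are the caspase inhibitor gene Diap1, the caspases Dronc and Drice, their activator Dark, the reporter gene puc, or any of 5 genes of caspase-activated DNases and their targets. Of 7 caspases, Strica (listed as dream) and Dcp-1 are named. Both rose in all 4 culture comparisons, Strica by 0.48 to 0.78 and Dcp-1 by 0.29 to 0.43. After the cut Dcp-1, an effector caspase, fell by 0.44 at 12 h posterior (adjusted p 0.0148) and did not pass elsewhere, and Strica passed in none. Of 4 inhibitors of apoptosis, Diap2 rose in all 4 culture comparisons by 0.80 to 1.03 and fell after the cut by 0.45 at 12 h posterior (adjusted p 0.0288) and by 0.40 at 24 h anterior (adjusted p 0.0393).

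The named mitochondrial genes of the pathway had signs opposite to those of Buffy, Debcl and p53 in both sets of comparisons. Of 6 on the list 3 are named: Cyt-c-p, the cytochrome c gene, AIF, and porin, which encodes a channel of the outer membrane. Under culture Cyt-c-p and porin fell in all 4 comparisons and AIF in 3, with Cyt-c-p lower by 0.84 at 12 h anterior and 1.60 at 24 h anterior. The median of these 3 ran from -0.84 to -0.46, against -0.06 to -0.02 for all probe sets. All 3 passed the authors' culture filter, so this gap follows in part from the choice and is no support for a shift of the list. After the cut Cyt-c-p rose in all 4 comparisons, by 0.71 and 0.88 at 12 h and by 1.37 and 1.17 at 24 h in the anterior and posterior regions. In the same order porin had differences of 0.14, 0.41, 0.61 and 0.34, the last 3 of which passed, and AIF had 0.25, 0.43, 0.48 and 0.37, none of which passed. These genes also serve respiration.

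Genes around p53 were the list with most named members, 11 of 14, where 18.8% of the probe sets in the value table are named. The list was chosen with earlier results of these data known, so this number is no support for a pattern. Higher under culture were 6 at 12 h anterior, 10 at 12 h posterior and 8 in each region at 24 h, with a list median between 0.61 and 1.02. RnrL, which encodes the large subunit of ribonucleotide reductase, was the exception: it fell in 3 of the 4, by 0.42 to 0.65. The DNA repair gene rad50 rose by 1.06 to 1.43 and Irbp, the Ku70 gene, by 0.94 to 1.47. The stress gene Gadd45 rose by 2.53 at 12 h posterior (adjusted p 1.75e-05) and did not pass in the other 3 comparisons (0.07, -0.13 and 0.70). The kinase gene lok rose in all 4 by 0.42 to 0.75, while after the cut its differences lay between -0.14 and -0.11 and none passed. After the cut the list had 1 rise and no fall at 12 h anterior, 3 falls at 12 h posterior, 1 rise and 2 falls at 24 h anterior, and 2 rises at 24 h posterior. Corp, which encodes a negative regulator of p53 in the fly, rose by 1.11 at 12 h anterior (adjusted p 0.00261) and by 0.89 at 24 h posterior (adjusted p 0.0143). Those are also the comparisons in which Buffy fell.

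In the list of Eiger and JNK signalling 4 of 13 genes are named, on 5 probe sets. The probe sets of egr, the TNF ligand gene, disagreed: 1629442_at rose under culture at 12 and 24 h in the posterior region (0.65 and 0.75), and 1639671_at at 24 h in the anterior region (1.35). After the cut 1629442_at fell at 24 h by 0.90 anterior and 0.81 posterior, and 1639671_at by 1.05 anterior alone. Traf4, which encodes an adaptor of the TNF receptor, rose under culture at 12 h posterior by 1.92 and at 24 h posterior by 1.36, and kay, the Fos gene, at the same 2 comparisons by 1.23 and 0.79. The JNK gene bsk fell in all 4 culture comparisons by 0.42 to 0.75, and none of these 3 genes passed after the cut. Among 4 growth inhibitors induced by stress, chrb fell after the cut in all 4 comparisons (0.45 to 0.89) and scyl in 3 (0.59 to 0.76). Thor, which encodes the inhibitor of translation 4E-BP, rose by 3.17 to 4.30 in the 4 culture comparisons and fell after the cut at 12 h posterior by 1.30 (adjusted p 0.0147).

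Most of the named autophagy genes rose under culture, as Debcl did. Of 18 on the list 8 are named, and 7, 7, 6 and 8 of them were higher under culture (anterior and posterior at 12 h, then both at 24 h), with medians from 0.53 to 0.79. After the cut none rose, and 1, 3, 1 and 1 fell, with medians from -0.31 to -0.22. Atg9 rose under culture by 0.62 to 0.98, Vps34 (listed as Pi3K59F) by 0.51 to 0.95 and Atg101 in 3 comparisons by 0.70 to 1.02. Atg9 and Vps34 were also picked above for their likeness to Debcl, so their rise beside it was set by that choice. After the cut Atg17 (listed as CG1347) fell in 3 comparisons by 0.47 to 0.67, and Atg6, the Beclin gene, in 2 by 0.35 and 0.46. Of 7 genes of mitochondrial dynamics, Pink1 rose in all 4 culture comparisons (0.64 to 1.09) and Tango11 fell in all 4 (0.31 to 0.61), and neither passed after the cut.

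Of 7 genes for the clearance of dead cells 4 are named. Under culture NimC4, a receptor that binds apoptotic cells, rose by 2.01 to 3.12, the adaptor gene Ced-6 by 1.28 to 1.64, and drpr, the receptor upstream of Ced-6, by 0.32 to 0.50. The remaining named gene, mbc, had differences above 0 under culture, the largest 0.75. After the cut these genes parted: NimC4 rose further at 12 h anterior (2.47), 24 h anterior (1.12) and 24 h posterior (2.33). Ced-6 fell in all 4 comparisons by 0.54 to 0.86, and drpr and mbc passed in none.

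**Figure D3:**
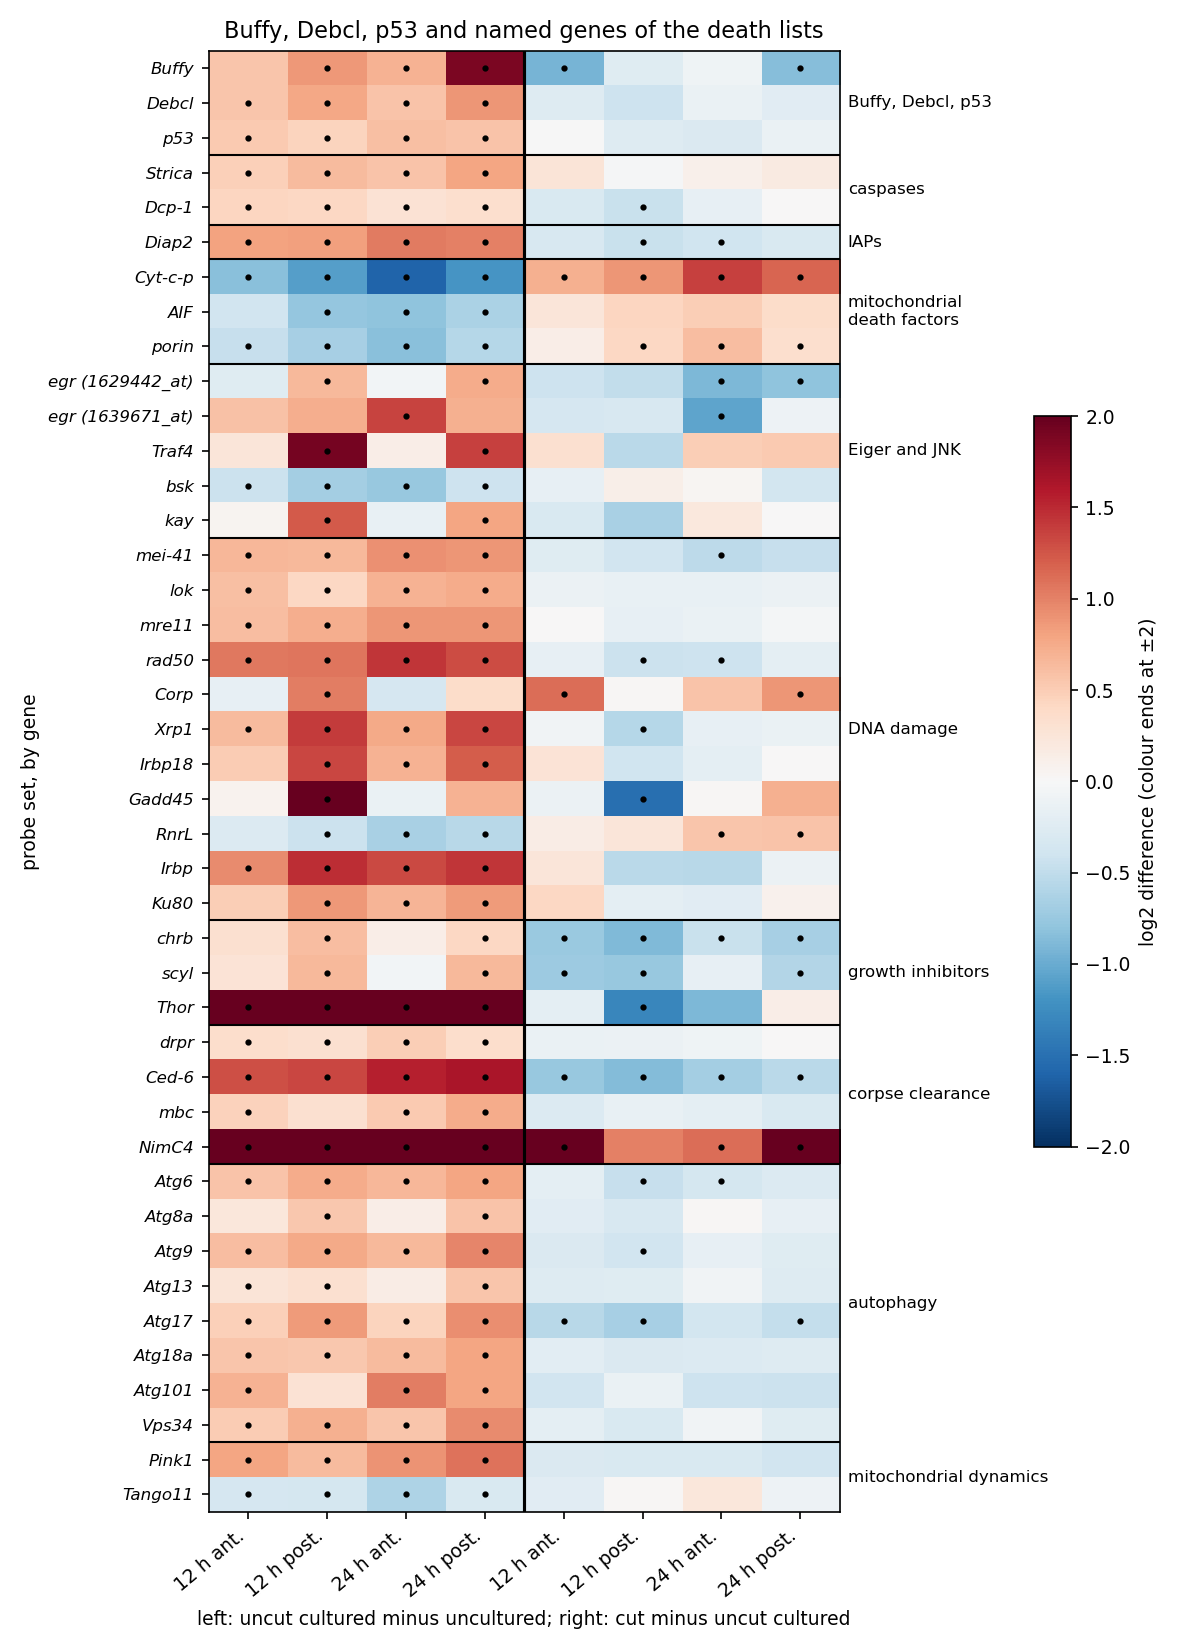
Colour shows the log2 difference (ends at ±2) for Buffy, Debcl, p53 and the named genes of the death lists, with 1 row per probe set and columns for uncut cultured minus uncultured regions (left) and cut minus uncut cultured regions (right). A dot marks an adjusted p under 0.05. The rows of Cyt-c-p, AIF and porin run opposite to those of Buffy, Debcl and p53 on both sides.

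Most named genes on the list of neuron and glia markers fell after the cut in the comparisons in which Buffy fell. Of the 6 on that list repo, ase, futsch and Appl are named, and futsch is also among the genes most like Buffy. Of these, ase is a gene of neural precursors, so the list is not of mature neurons and glia alone. The mean of these 4 probe sets was lowest in cut 12 h anterior samples (-1.40 to -1.07) and highest in uncut 24 h posterior samples (0.79 to 1.39), the same groups that held the lowest and the highest Buffy. After the cut 3 of 4 markers fell at 12 h anterior (repo by 0.84, ase by 1.83 and futsch by 1.21) and 3 of 4 at 24 h posterior, where Buffy fell. At 12 h posterior none passed, and at 24 h anterior 2 of 4 did, where Buffy did not. Under culture 1 of 4 rose at 12 h anterior, where Buffy did not pass, and 3 of 4 at 24 h anterior. At 12 h posterior, where Buffy rose by 0.87, Appl rose by 1.27, ase fell by 1.04 and the other two did not pass. At 24 h posterior, where Buffy rose most, futsch and Appl rose by 1.79 and 1.88, while repo (0.37) and ase (0.0014) did not pass. Over the 10 group means their mean correlated with Buffy at r = 0.83, with Debcl at 0.36 and with p53 at 0.12. That mean includes futsch, whose own r with Buffy was 0.94, and no value without it was computed. Their part in the differences of Buffy was not tested, and since the values are centred, no marker can be called present or absent.

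**Figure D4:**
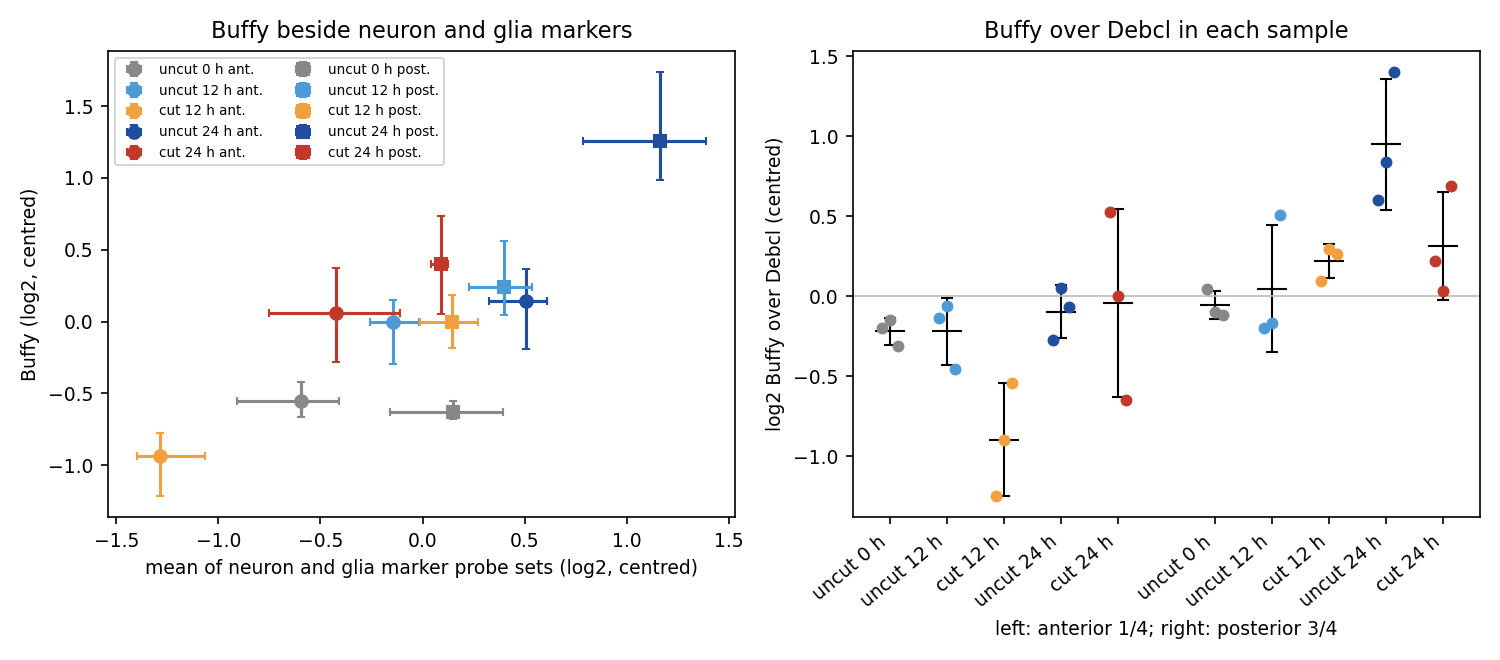
Left, Buffy (vertical axis) against the mean of 4 neuron and glia marker probe sets (horizontal axis), both as centred log2 values, with points for the 10 group means and bars for the lowest and highest of 3 samples (circles, anterior; squares, posterior). Right, the log2 ratio of Buffy to Debcl in each sample with group means and SDs, where cut 12 h anterior samples lie lowest and uncut 24 h posterior samples highest.

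Markers of the leg disc epithelium (B-H2, ap, bab2 and Scr, on 5 probe sets) were also lower after the cut. Of the 5 probe sets 4 fell at 12 h anterior (median -0.83), 3 at 24 h posterior (median -0.77), both comparisons in which Buffy fell, 3 at 24 h anterior and none at 12 h posterior. Their mean was lowest in cut 12 h anterior samples (-1.37 to -1.17), the group with the lowest Buffy, but highest in uncultured posterior samples (0.86 to 1.05), where Buffy was low. Under culture 1, 2, 3 and 1 of 5 were lower at 12 h anterior, at 12 h posterior and in these regions at 24 h, and none was higher. Over the 10 group means they correlated with Buffy at r = 0.43, with Debcl at -0.22 and with p53 at -0.44. Their part in the differences of Buffy was not tested.

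Myoblast and muscle markers, 4 of 8 named on 5 probe sets, correlated over the group means with Debcl and p53 at r = 0.87 and 0.86 and with Buffy at 0.50. Their mean lay at -0.39 to -0.23 in uncultured anterior and -0.64 to -0.57 in uncultured posterior samples, against -0.25 to 0.41 in the uncut cultured samples. Under culture 4 and 2 of the 5 probe sets rose at 12 h in the anterior and posterior regions, and 2 and 5 at 24 h, with none called lower. Both Mef2 probe sets rose in all 4 comparisons, by 0.81 to 1.21, whereas bt, a muscle gene, had -0.56 at 12 h anterior (adjusted p 0.0557) and rose only at 24 h posterior, by 1.16. After the cut the list went both ways. Lower were 3 probe sets at 12 h anterior and 2 each at 12 and 24 h posterior, among them twi by 0.45 to 0.88, and bt rose by 2.45 and 1.81 at 12 h in the anterior and posterior regions and by 0.94 at 24 h anterior. Of the haemocyte markers, 4 of 8 named, all 4 rose after the cut at 24 h in both regions and 1 at 12 h in each, and 2, 0, 4 and 1 rose in the culture comparisons (anterior and posterior at 12 h, then both at 24 h). Of 6 markers of the host abdomen only the yolk protein gene Yp1 is named. It rose under culture in the anterior region by 2.27 at 12 h and 3.16 at 24 h, and after the cut at 24 h posterior by 1.85. The tracheal marker vvl (1 of 4 named) fell after the cut at 12 h anterior by 0.68, and no marker of the fat body or of the anterior or posterior compartment is named. The part of these cells in the differences of Debcl and p53 was not tested.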

How the data were processed

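Expression was measured on Affymetrix arrays in 30 samples, 3 biological replicates in each of 10 groups, taken from the sample titles. RNA went through the GeneChip kit for 2 cycles of cDNA synthesis, per the labels. The authors normalised with RMA and tested with limma, per the submitters' processing notes, which give no versions. The deposited value table holds log2 values of 18952 probe sets, each centred on its mean over the samples. The log base is not written and was taken from RMA. All deposited log fold changes equalled differences of group means of this table, to within 1.6e-08. The p-value columns of the authors' tables are overall adjusted values, filtered at 0.001 (1480 and 3018 probe sets, 942 shared). Names come only from those tables, which cover 18.8% of the value table. No column of samples was left out.

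After 183 control probe sets were removed, limma 3.58.1 in R 4.3.3 was fitted to all 30 samples with 1 mean per group (20 residual and 5.26 prior degrees of freedom), and p-values were adjusted by the Benjamini-Hochberg method over 18769 probe sets within each of 27 contrasts. The fit was tested on simulated data. Precision is limited by how many arrays there are (a median SE of 0.12 per difference), and no signal over background can be read from centred values. Replicate samples are named biological in the titles, and nothing says whether they came from separate days.

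Groups share replicate numbers. Across the cut and culture comparisons, deviations of same-numbered samples correlated at -0.19 to 0.26 over 24 pairs, 6 of them above 0.1. The numbers were therefore not taken as pairs there, and the main fit has no block. Anterior and posterior samples of the same number were not examined in this way. Whether they came from the same discs is not known here, and the regional differences treat them as independent. No 2 samples were identical (highest r 0.85).

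Buffy, Debcl and p53, the lists and the tests were chosen with earlier results of these data known. The rule named all probe sets of the 3 genes, up to 3 genes per list and table with the largest difference, and the 5 genes most like each. Of the other genes, lok, RnrL, bsk, drpr and the markers of cell types were named after their values were seen. The lists held RHG death inducers, caspases, inhibitors of apoptosis, mitochondrial death factors, Eiger and JNK signalling, DNA damage, growth inhibitors, clearance, DNases, autophagy and mitochondrial dynamics. Where a gene has several probe sets all are given, since centred values do not show which is brighter. Symbols were brought up to date through RefSeq genes (assembly Release 6 plus ISO1 MT). Alternatives were array weights, robust moderation, a fit of the compared groups alone, renewed quantile normalisation, control probe sets kept, the replicate number as a block, and each replicate left out.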

Additional observations from a re-analysis of the deposited data

Results flagged for a closer look

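The effect of culture or cut on 5 genes differed between regions or times by limma's test of the difference (Benjamini-Hochberg adjusted p under 0.05). They come from Buffy, Debcl, p53 and list genes chosen for large differences, so their number is no support for a pattern. Of all probe sets 0.192% and 1.28% were called for the culture effect between regions at 12 and 24 h. Between these times 2.17% (anterior) and 0.623% (posterior) were called for the culture effect, and 2.15% for the anterior cut effect. For Buffy the culture effect at 24 h was lower in the anterior than in the posterior region by 1.19 (log2 difference -1.19, adjusted p 0.0387), and in the posterior region it was higher at 24 h than at 12 h by 1.02 (adjusted p 0.0208). Both calls of Buffy end without single samples, as described with them.

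For Cyt-c-p the anterior cut effect was higher at 24 h than at 12 h by 0.66 (adjusted p 0.0136), and the anterior culture effect changed by -0.76 between 12 and 24 h (adjusted p 0.000576). For porin the anterior culture effect changed by -0.38 between these times (adjusted p 0.0409). The culture effect on Traf4 at 12 h differed by -1.68, anterior minus posterior (adjusted p 0.0358). The posterior culture effect on Gadd45 changed by -1.83 from 12 to 24 h (adjusted p 0.0258).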

How the results depend on the processing

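The centred values hold no level, so a filter on dim probe sets and an intensity trend could not be run, and each gene has 1 named probe set, so no other could be tried. Genes outside the authors' tables carry no name here. Robust moderation and kept control probe sets changed no direction or call of Buffy, Debcl or p53. The authors' deposited fold changes, which carry no p per comparison, equalled the 16 differences they cover. The replicate number as a block changed none either: Buffy at 24 h posterior, cut minus uncut, stayed at -0.86 (adjusted p 0.00823), and the called probe sets at 12 h posterior numbered 1053 instead of 947. In 8 of 24 pairs a sample correlated best with its own number.

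Differences below are log2 values with limma's adjusted p, and where a value lost or gained its call the cause was not tested. In a fit of the compared groups alone, with fewer samples, Buffy lost its calls at -0.86 (cut minus uncut, 24 h posterior, 0.0748), -1.11 (anterior minus posterior, uncut 24 h, 0.12), 1.02 (culture effect, 24 minus 12 h, posterior, 0.134) and -1.19 (culture effect, anterior minus posterior, 24 h, 0.0741). With array weights Buffy lost the last of these (-1.19, 0.0784) and culture at 24 h anterior (0.65, 0.0977), and with renewed quantile normalisation the same 2 (-1.04 and 0.50). Gained were Debcl, cut minus uncut, 12 h posterior (-0.48 with weights, -0.55 quantile), p53, anterior minus posterior, cut 12 h (0.44 and 0.44), and p53, cut minus uncut, 12 h posterior (-0.31 with weights). Signs turned for Debcl under quantile normalisation in uncut 12 h regions (-0.019) and in the anterior 24 minus 12 h difference (-0.026), and for p53 with weights in cut 24 h regions (0.053).

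Called probe sets at 12 h posterior, cut minus uncut, numbered 2589 with weights and 2180 after quantile normalisation, and at 24 h posterior 1127 in the compared groups alone. Under culture they numbered 1866 (weights), 1498 (groups alone) and 1910 (quantile) at 12 h anterior, 5823 (weights) at 12 h posterior, and 3962, 3361 and 3455 at 24 h anterior.

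Leaving out 1 sample moved these counts to 839 to 1528 (12 h anterior, cut minus uncut), 393 to 875 (12 h posterior), 836 to 1576 (24 h anterior) and 1055 to 2002 (24 h posterior). They moved by over 1.5 times without cut 12 h anterior replicate 3, any cut 12 h posterior replicate, uncut 12 h posterior replicate 2 or 3, cut 24 h anterior replicate 1 or 2, and uncut 24 h posterior replicate 1 or 3. Such fits gave Buffy -0.25 to 0.085 and -1.02 to -0.62 (cut minus uncut, 24 h anterior and posterior), 0.48 to 0.70 and 0.59 to 0.86 (culture, 12 and 24 h anterior), -1.03 to -0.80 and -1.25 to -0.87 (anterior minus posterior, cut 12 h and uncut 24 h), -0.0030 to 0.31 and 0.78 to 1.17 (culture, 24 minus 12 h, anterior and posterior) and -1.33 to -0.95 (culture, anterior minus posterior, 24 h). They gave Debcl -0.57 to -0.30 (cut minus uncut, 12 h posterior), -0.12 to 0.14, -0.049 to 0.084 and -0.15 to 0.0077 (anterior minus posterior, cut 24 h, uncut 12 h and uncut 24 h), -0.020 to 0.10 (culture, 24 minus 12 h, anterior), and -0.014 to 0.25 and -0.053 to 0.21 (cut effect, 24 minus 12 h in the anterior, and anterior minus posterior at 24 h). They gave p53 -0.079 to 0.025 (cut minus uncut, 12 h anterior), -0.21 to -0.15 (mean of 4), 0.34 to 0.51 and -0.11 to 0.13 (anterior minus posterior, cut 12 and 24 h), -0.029 to 0.14 and -0.075 to 0.091 (culture, anterior minus posterior, 12 and 24 h), and -0.038 to 0.22 and -0.23 to 0.0081 (cut effect, 24 minus 12 h in the posterior, and anterior minus posterior at 24 h).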
